A study of Mus musculus with 9 samples.

Results

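The 10 genes read here in mouse liver were long noncoding RNA (lncRNA) genes: Malat1, Neat1 and Meg3, whose transcripts are known to stay largely in the nucleus, and Gas5, Snhg1, Snhg3, Snhg5, Snhg8, Snhg11 and Snhg12, which host small nucleolar RNAs (snoRNAs). They were chosen by symbol, with earlier results of these data known. Each of the 10 had 1 row among the 18954 genes of the deposited count table. All 9 livers were labelled day 42 and carried 1 GSDMD-NT knock-in allele (NTki/wt), for the N-terminal, pore-forming part of gasdermin D. The 4 controls carried that allele alone, and the 5 GSDMD-NT Alb-cre livers (Alb-cre livers from here on) also carried 1 Alb-cre knock-in allele, which places Cre recombinase under the albumin promoter, active in hepatocytes. No group analysed here carried the Alb-cre allele alone, and the effect of Cre itself cannot be told apart from that of the pore-forming protein. The series describes cell death induced by doxycycline, but the labels give neither the drug nor its dose for a liver, and the strain, age and sex are not labelled. Nothing in the labels states that the livers came from separate animals, so each p-value covers the spread among these samples, part of which may be technical.

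Libraries had been depleted of ribosomal RNA, so RNAs without a poly(A) tail could be retained. Totals ran from 13361093 to 16823506 counts per liver. Mitochondrially encoded genes took 9.55% of the counts in control 4 and 4.23 to 6.88% in the other livers. Hepatocyte markers (11 of 12 listed were in the table) summed to 80716 to 101780 CPM, counts scaled to a common library size, in controls and 62184 to 81747 CPM in Alb-cre livers. Alb alone averaged 54199 CPM in controls and 43042 CPM in Alb-cre livers. The list was mixed: 7 of the 11 genes had lower fitted levels in Alb-cre livers, and Apob, Hnf4a, Cps1 and Pck1 had higher ones. Only Ttr, which fell, passed the test given below. Gsdmd measured 38.8 ± 7.17 CPM in controls and 41.0 ± 7.16 CPM in Alb-cre livers (SD, n = 4 and 5), and whether reads of the inserted sequence were counted there was not stated in the labels. Levels are CPM scaled by TMM, a factor per library that evens out composition. A log2 fold change compares Alb-cre livers with controls (negative where lower in Alb-cre livers) and stands with its SE. The test was edgeR quasi-likelihood, p was adjusted over the 14004 genes tested by Benjamini-Hochberg, and a gene was called at an adjusted p under 0.05.

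A snoRNA host gene is transcribed and spliced, and the snoRNAs are cut from its introns and guide the chemical modification or processing of other RNAs, ribosomal RNA above all. The spliced host RNA is exported, and many such RNAs are degraded by nonsense-mediated decay once ribosomes have read them, so that their level is known to follow growth, translation and decay. Several host genes share with ribosomal protein genes a start site of the 5′ terminal oligopyrimidine (TOP) kind, a C followed by a run of C or T, which ties translation to the growth kinase mTOR. Malat1 lies in nuclear speckles, where splicing factors gather, Neat1 is the scaffold of paraspeckles, and Meg3 is an imprinted RNA expressed from the maternal chromosome.

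The start regions of the genes that carry the results are shown here, from 45 bases before the start to the 45th base from it on. They are RefSeq sequences of build GRCm38.p6, which is not the build the authors aligned to (GRCm39). RefSeq listed 11 starts for 9 of the 10 members. Capitals mark TATA where it lay within 40 to 18 bases before the start, and a C followed by at least 4 bases that are each C or T where this run began within 5 bases of the start. TATA stood at 6 of the 11 starts, against 5.7% of all 32851 starts in the table. It reads the same on either strand. The run, searched on the strand that reads like the RNA, was found at 5 of the 11 starts, against 18.3% of all starts.
Gas5, chr1:161035121-161035210, plus strand, the downstream of 2 starts: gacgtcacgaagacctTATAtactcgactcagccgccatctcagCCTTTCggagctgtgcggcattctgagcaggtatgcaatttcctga
Snhg8, chr3:123508292-123508381, minus strand: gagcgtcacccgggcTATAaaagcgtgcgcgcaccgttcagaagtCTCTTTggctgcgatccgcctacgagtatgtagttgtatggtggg
Snhg12, chr4:132308633-132308722, plus strand: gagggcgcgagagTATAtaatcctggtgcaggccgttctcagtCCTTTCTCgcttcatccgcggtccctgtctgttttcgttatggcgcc
Snhg11, chr2:158375668-158375757, plus strand: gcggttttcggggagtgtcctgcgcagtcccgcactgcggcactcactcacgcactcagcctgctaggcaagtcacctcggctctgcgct
Snhg1, chr19:8723442-8723531, plus strand: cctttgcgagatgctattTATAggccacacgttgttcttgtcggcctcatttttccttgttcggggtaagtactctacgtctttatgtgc
Snhg5, chr9:88522853-88522942, minus strand: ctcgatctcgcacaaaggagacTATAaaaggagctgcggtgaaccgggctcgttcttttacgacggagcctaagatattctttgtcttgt
Meg3, chr12:109540951-109541040, plus strand, the upstream of 2 starts: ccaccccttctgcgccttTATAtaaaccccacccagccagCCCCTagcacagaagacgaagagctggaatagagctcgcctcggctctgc
At the starts shown, Gas5, Snhg8, Snhg12 and Meg3 held both features, Snhg1 and Snhg5 held TATA without the run as defined, and Snhg11 held neither. Of the starts not shown, the other start of Gas5, that of Meg3 and the Malat1 start held neither, and Snhg3 held the run without TATA. A match is a description of these letters and not evidence of a working element.

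The snoRNAs themselves were not measured apart from their hosts by these counts. In GENCODE M21 annotated exons of the hosts overlap snoRNAs on the same strand. The overlap is 77 bases for Snord47 in Gas5, 130 for Snora24 in Snhg8, 133 for Gm25187 in Snhg11 and 74 for Snord99 in Snhg12. Whether reads of snoRNAs or unspliced RNA were counted in the host rows was not stated in the labels. The table held 4 rows named as snoRNAs or related scaRNAs, with at most 9 counts in any liver. In the GENCODE M21 annotation the same strand of the host held 9 snoRNA loci in Gas5, 8 in Snhg1, 4 in Snhg12, 2 each in Snhg3, Snhg5 and Snhg11, and 1 in Snhg8. An example from each of the 4 hosts that passed the test below shows what these genes carry (GENCODE M21, build GRCm38). In the box C/D snoRNAs, which guide methylation, capitals mark the first TGATGA (box C) and the last CTGA (box D), and in the box H/ACA snoRNAs, which guide pseudouridylation, they mark the ACA near the 3′ end.
Snord47, in Gas5, box C/D, 77 bases: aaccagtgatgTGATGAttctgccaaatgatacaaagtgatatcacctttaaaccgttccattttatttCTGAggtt
Snord99, in Snhg12, box C/D, 74 bases: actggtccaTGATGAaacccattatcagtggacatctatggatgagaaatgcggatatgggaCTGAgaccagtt
Snora24, in Snhg8, box H/ACA, 130 bases: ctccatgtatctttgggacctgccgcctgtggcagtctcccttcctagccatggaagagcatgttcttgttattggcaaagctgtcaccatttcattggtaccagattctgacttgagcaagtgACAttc
Gm25187, in Snhg11, box H/ACA, 133 bases: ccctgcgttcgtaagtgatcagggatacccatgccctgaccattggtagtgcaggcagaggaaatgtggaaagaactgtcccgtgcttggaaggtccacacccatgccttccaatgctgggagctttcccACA

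Of the 10 genes 9 passed the low-count filter and Snhg3 did not. Gas5, Snhg8, Snhg11, Snhg12 and Meg3 were lower in Alb-cre livers, and 0 members were higher, also by DESeq2 and limma-voom. This is 5 of 9 tested, against 9.07% lower and 9.25% higher among all 14004 genes tested (18.3% in either direction). The same 5 genes had groups that did not overlap, where 9.22% of tested genes were lower and 9.23% higher without overlap. All 9 log2 fold changes were below 0, with a median of -0.67, while the median over all tested genes was 0.01 and 48.8% of them were below 0. Because the members were chosen with earlier results of these data known, these shares are a description and not a test of the list. With controls 2 and 4 both left out, which leaves 2 controls, 0 of the 5 genes passed (adjusted p by edgeR 0.0771 to 0.174). In each bulk liver, fewer cells of a type and less RNA per cell cannot be told apart.

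**Figure D1:**
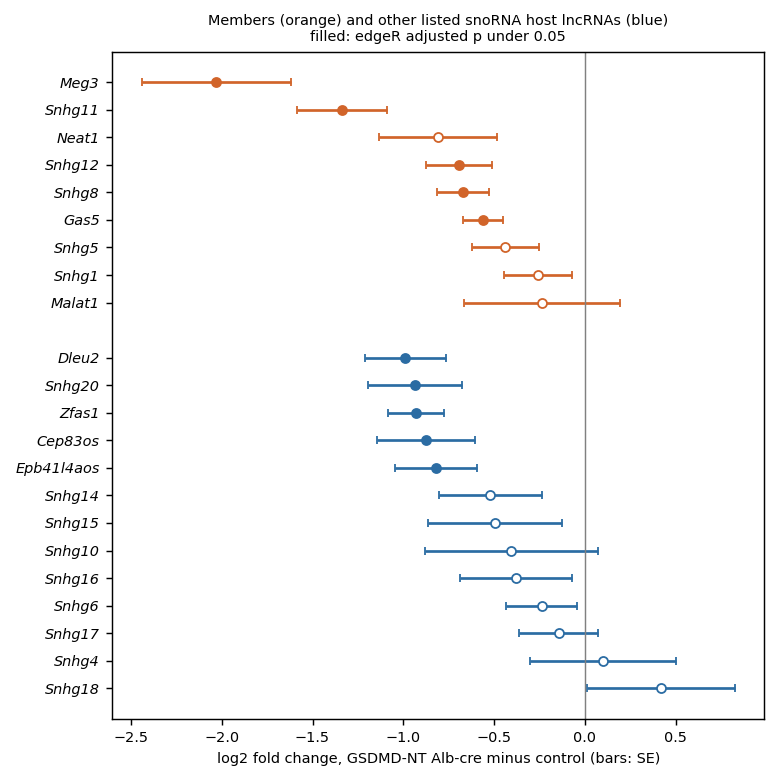
Log2 fold change (x axis, Alb-cre minus control, bars ± SE) of the 9 tested members in orange and of 13 other lncRNA genes listed as snoRNA hosts in blue, filled where edgeR's adjusted p was under 0.05. All 9 members lie left of 0, from -2.03 for Meg3 to -0.24 for Malat1, and 5 of them are filled.

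Gas5 (ENSMUSG00000053332.15), named for its build-up in growth-arrested cells, was the most abundant host. It measured 49.3, 49.7, 44.6 and 58.0 CPM in controls 1 to 4 and 33.4, 36.5, 31.5, 37.3 and 31.8 CPM in Alb-cre livers 1 to 5. Every Alb-cre liver lay below every control, and the spread within each group was small, with a coefficient of variation of 11.0% in controls and 7.85% in Alb-cre livers. The mean fell by 32.3% (log2 fold change -0.56 ± 0.11, adjusted p = 0.00799 by edgeR). It was called whichever of the 9 livers was left out, and the adjusted p by edgeR was at most 0.0274, but not when controls 2 and 4 were both left out (adjusted p = 0.0928).

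Snhg8 (ENSMUSG00000104960.3), the host of the H/ACA snoRNA Snora24, behaved alike in size. Its level was 11.6, 16.2, 15.2 and 17.9 CPM in controls 1 to 4 and 10.2, 9.19, 9.57, 10.01 and 8.77 CPM in Alb-cre livers 1 to 5. Control 1 was the lowest control and came nearest to the Alb-cre group, which was tight (coefficient of variation 6.12%). The mean fell by 37.3% (log2 fold change -0.67 ± 0.14, adjusted p = 0.0103 by edgeR). This call too was lost with controls 2 and 4 both left out (adjusted p = 0.146 by edgeR).

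Snhg12 (ENSMUSG00000086290.11), which carries Snora16a, Snora44, Snora61 and Snord99, measured 9.92, 8.59, 8.35 and 10.8 CPM in controls and 5.61, 6.46, 4.04, 5.92 and 7.18 CPM in Alb-cre livers. The groups did not overlap, with Alb-cre 5 nearest to the controls and Alb-cre 3 lowest. The mean fell by 38.0% (log2 fold change -0.69 ± 0.18, adjusted p = 0.0236 by edgeR). The call was lost without control 1, control 4 or Alb-cre 1 (adjusted p by edgeR 0.0534 to 0.0725), while the log2 fold change stayed between -0.78 and -0.57 over the 9 fits that each left out a liver.

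Snhg11 (ENSMUSG00000044349.17), known best from neurons, fell most among the hosts. It measured 22.6, 28.3, 25.9 and 42.3 CPM in controls and 9.05, 7.12, 13.6, 17.7 and 11.4 CPM in Alb-cre livers. Control 4 stood above the other controls, yet the lowest control was still above the highest Alb-cre liver. The mean fell by 60.5% (log2 fold change -1.34 ± 0.25, adjusted p = 0.00657 by edgeR), and the log2 fold change was -1.12 without control 4. Of 10 neuronal markers listed, 4 were in the table, and their summed level was 9.86 to 17.6 CPM in controls and 6.59 to 13.1 CPM in Alb-cre livers. Their part in the result was not tested. GENCODE M21 types this gene as protein-coding and RefSeq as a lncRNA.

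Snhg5 and Snhg1 did not pass the test. Snhg5 (ENSMUSG00000097195.12), the host of Snord50a and Snord50b, measured 5.72, 5.23, 4.54 and 7.29 CPM in controls and 3.76, 4.99, 4.10, 4.15 and 4.05 CPM in Alb-cre livers (a log2 fold change of -0.44 ± 0.19, adjusted p = 0.117 by edgeR). In that gene 4 of 5 Alb-cre livers lay below the lowest control. Snhg1 (ENSMUSG00000108414.3), which carries Snord22 among others, was the steadiest member in controls, at 8.09, 7.29, 8.06 and 7.71 CPM. In Alb-cre livers it measured 5.29, 9.45, 5.42, 6.20 and 6.18 CPM (log2 fold change -0.26 ± 0.19, adjusted p = 0.347 by edgeR). Here 4 of 5 Alb-cre livers lay below every control and Alb-cre 2 lay above every control. Without that liver the Snhg1 difference was -0.43 on the log2 scale (adjusted p = 0.0714 by edgeR).

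Snhg3 (ENSMUSG00000085241.8), the host of Snora73a and Snora73b, had 2 counts in Alb-cre 3 and 0 counts in the other 8 livers, and was not tested. A count of 0 allows up to 3 counts, or 0.178 to 0.225 CPM of the library total in those 8 livers, for counting error alone. In GENCODE M21, 135 exonic bases of Snhg3 are shared with Rcc1 on the same strand and 705 with Gm17300 on the opposite strand, and how the authors counted shared bases was not stated, which leaves this level uncertain.

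Summed over Gas5 and the 6 Snhg members, the level was 107, 115, 107 and 144 CPM in controls 1 to 4 and 67.3, 73.8, 68.3, 81.3 and 69.3 CPM in Alb-cre livers 1 to 5. The sum was highest in control 4 and did not overlap between the groups, and Gas5 made up the largest part of it. As a description the means were 118 ± 17.6 CPM and 72.0 ± 5.76 CPM (SD, n = 4 and 5).

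**Figure D2:**
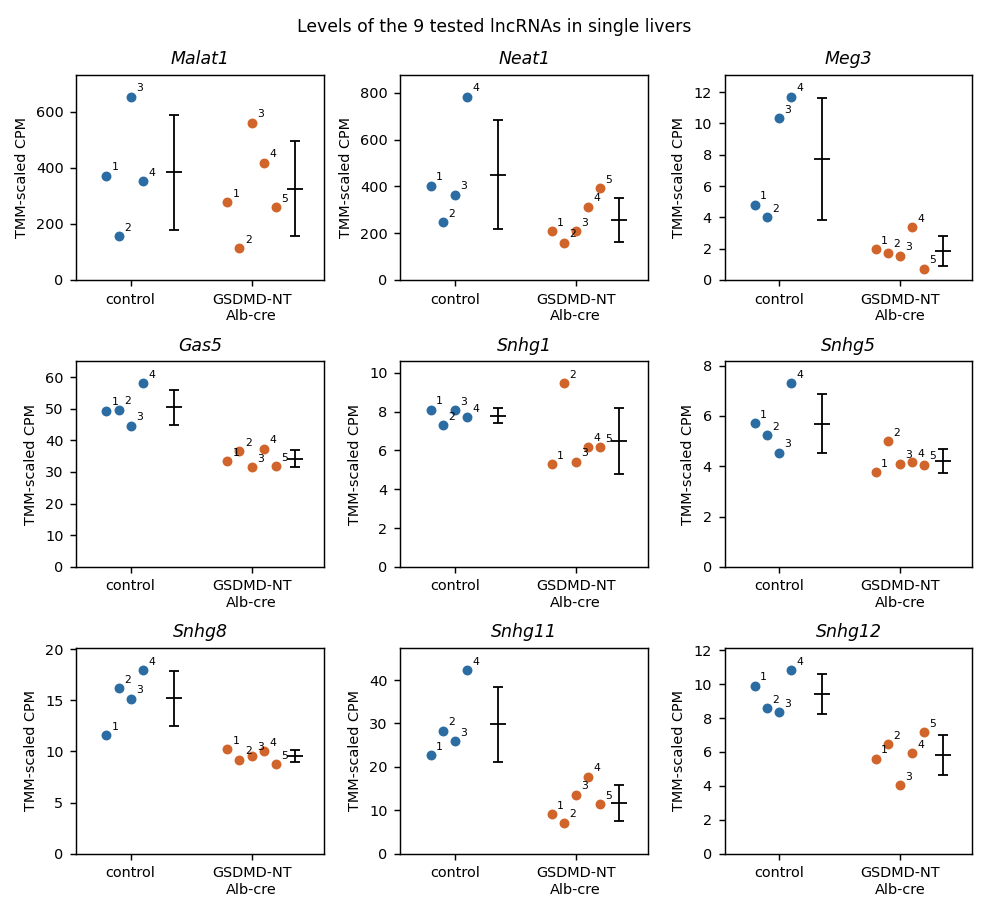
TMM-scaled CPM (y axis, from 0) of each tested lncRNA in every liver, numbered by replicate, with controls in blue, Alb-cre livers in orange and the mean ± SD in black. The groups are apart for Meg3, Gas5, Snhg8, Snhg11 and Snhg12 and overlap for Malat1, Neat1, Snhg1 and Snhg5, where Alb-cre 2 is the highest of its group in Snhg1 at 9.45 CPM.

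Meg3 (ENSMUSG00000021268.19) had the steepest fall of the tested members, and the lowest mean in Alb-cre livers but not in controls. It measured 4.81, 4.00, 10.3 and 11.7 CPM in controls 1 to 4 and 1.97, 1.73, 1.56, 3.36 and 0.731 CPM in Alb-cre livers 1 to 5. The controls formed a lower pair and a higher pair, Alb-cre 4 came nearest to the lower pair, and Alb-cre 5 rested on 11 counts. The mean fell by 75.8% (log2 fold change -2.03 ± 0.41, adjusted p = 0.00884 by edgeR). It was called whichever of the 9 livers was left out (adjusted p by edgeR at most 0.0335). Meg3 shares 1228 exonic bases with Gm26906 on the opposite strand in GENCODE M21, and the strand setting of the counting was not stated in the labels.

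Meg3 belongs to the imprinted Dlk1-Dio3 cluster, where Rian and Mirg are RNAs expressed, like Meg3, from the maternal chromosome and Dlk1 from the paternal one. Rian had 9 to 34 counts in controls and 0 to 6 counts in Alb-cre livers, 1.58 ± 0.803 CPM against 0.256 ± 0.163 CPM, without overlap. It was below the filter, and with no low-count filter Rian gave a log2 fold change of -2.55 ± 0.57 and an adjusted p of 0.014 by edgeR. Mirg had 3 to 7 counts in controls and 0 to 7 in Alb-cre livers, and Dlk1 had at most 2 counts in any liver. Of the 9 genes listed for this cluster and for the separate H19 and Igf2 locus, 6 were in the table and 2 were tested: H19 was lower in the test, and Dio3os differed by -0.84 ± 0.63 on the log2 scale without passing (adjusted p = 0.366 by edgeR).

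In liver, Meg3 is known from endothelial and stellate cells as well as hepatocytes. The 12 endothelial markers summed to 206 to 322 CPM in controls and 170 to 383 CPM in Alb-cre livers, and the 12 stellate cell and fibroblast markers to 192 to 327 CPM and 129 to 276 CPM, so neither sum was apart between groups. The 12 lymphocyte markers did move with the group, from 18.5 to 21.8 CPM in controls and from 6.71 to 13.0 CPM in Alb-cre livers. In that list 4 of 8 tested markers were lower and 0 higher, against 9.07% and 9.25% of all tested genes. Among those called was Cd79a, a B cell receptor gene, at 1.99 ± 0.359 CPM in controls and 0.396 ± 0.225 CPM in Alb-cre livers. The count of lower lymphocyte markers was 2 without control 2 or control 4. The part of these cells in the fall of the lncRNAs was not tested.

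Malat1 and Neat1, neighbours on chromosome 19, were the most abundant members, and both varied widely among livers of a group. Malat1 (ENSMUSG00000092341.5) measured 372, 155, 653 and 351 CPM in controls and 277, 112, 560, 417 and 258 CPM in Alb-cre livers. The groups overlapped through most of their range, and the spread was over 4-fold within each group. The log2 fold change was -0.24 ± 0.43 (adjusted p = 0.728 by edgeR), and it was 0.15 without control 3, so its direction rests on that liver. Malat1 shares 453 exonic bases with Gm37376 on the opposite strand in GENCODE M21.

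Neat1 (ENSMUSG00000092274.5) measured 403, 246, 365 and 784 CPM in controls and 210, 159, 208, 313 and 393 CPM in Alb-cre livers. All 5 Alb-cre livers lay below the control mean and 3 of them below the lowest control, but the groups overlapped. The log2 fold change was -0.81 ± 0.32 (adjusted p = 0.0991 by edgeR). Control 4, which also had the highest mitochondrial share, stood above the rest, and without it the Neat1 log2 fold change was -0.40. Together Malat1 and Neat1 took 0.0778, 0.0386, 0.104 and 0.116% of all counts in controls and 0.0491, 0.0242, 0.0799, 0.0799 and 0.0626% in Alb-cre livers. The means differed by -0.0249 percentage points, which was within the spread (exact permutation test over 126 splits, two-sided, p = 0.23, smallest possible p = 0.00794).

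**Figure D3:**
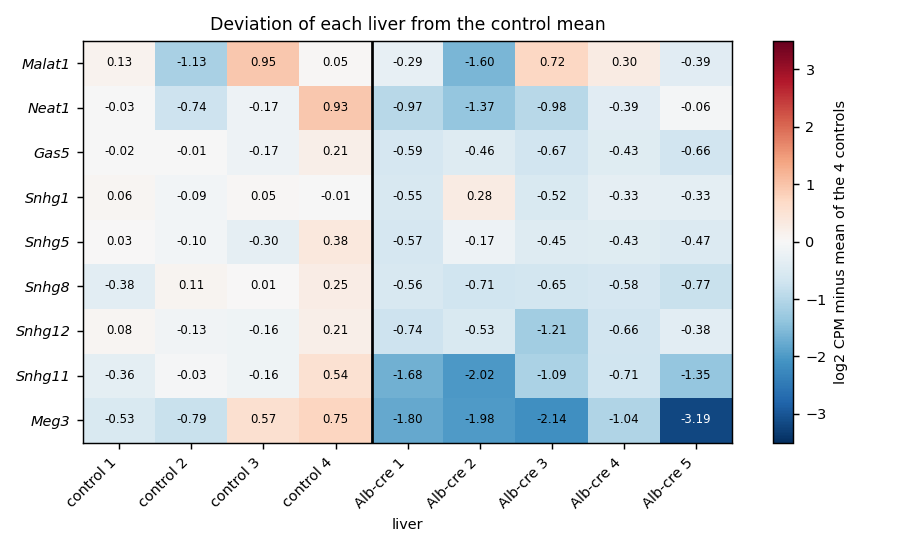
Log2 CPM of each tested lncRNA (rows) in each liver (columns) minus the mean of the 4 controls, in red where higher and blue where lower, with controls left of the black line. The rows for Gas5, Snhg8, Snhg12, Snhg11 and Meg3 are blue in every Alb-cre liver and reach -3.19 for Meg3 in Alb-cre 5, while Malat1 is mixed on both sides.

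Per length, taken as CPM per kilobase of all annotated exons joined (GENCODE M21), the controls ranked Malat1 at 54.8 ± 29.4, Neat1 at 21.7 ± 11.2, Snhg8 at 17.8 ± 3.15, Gas5 at 13.4 ± 1.48, Snhg12 at 3.92 ± 0.483, Snhg11 at 3.496 ± 1.01, Snhg5 at 3.29 ± 0.675, Snhg1 at 2.62 ± 0.125 and Meg3 at 0.426 ± 0.214 (SD, n = 4). Neighbours in this order differed by less than the sum of their SDs, except Gas5 from Snhg12 and Snhg1 from Meg3. The short Snhg8 thus ranked above Gas5 per length, although it had fewer reads.

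Over all 9 livers Pearson's r of log2 CPM with Gas5 was 0.892 for Snhg5, 0.892 for Snhg8, 0.872 for Snhg12, 0.867 for Meg3, 0.859 for Snhg11 and 0.601 for Snhg1. Pairs without Gas5 reached similar values, with 0.886 for Snhg11 and Snhg8 and 0.872 for Meg3 and Snhg8. These values contain the difference between the groups, and after each group's mean was taken away r with Gas5 was 0.819 for Snhg5, 0.404 for Snhg8, 0.483 for Snhg12, 0.474 for Meg3, 0.341 for Snhg11 and 0.325 for Snhg1. On that centred scale it was 0.633 for Snhg11 and Neat1, 0.527 for Meg3 and Snhg8 and 0.521 for Snhg11 and Snhg8. Malat1 had r between -0.533 and 0.495 with the other members on the centred scale. Among all tested genes with an established symbol, the genes most like Gas5 were H2-DMb1 (r = 0.984), an MHC class II chaperone gene, Sh3glb2 (0.979) and Dnajc4 (0.979), and those most like Meg3 were Gpnmb (0.971), a gene of lipid-laden macrophages among other cells, Meaf6 (0.958) and Rasa4 (0.956). The genes most like Malat1 were Zfp738 (0.946), Mcm8 (0.936) and Trim44 (0.91), those most like Neat1 were Top1mt (0.965), Zdhhc23 (0.959) and Hpf1 (0.933), and those most like Snhg1 were Nprl2 (0.944), Pstpip1 (0.943) and Klf6 (0.928). These are descriptions over 9 livers picked from 14004 genes, and the points share their libraries.

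Of 13 other tested lncRNA genes listed as snoRNA hosts, 5 were lower by edgeR (38.5%, against 9.07% of all tested genes). By edgeR, DESeq2 or limma-voom 0 were higher, where edgeR called 9.25% of all tested genes higher. The median log2 fold change was -0.49, with 11 of 13 below 0. Zfas1, the host of the Snord12 family, measured 13.8 ± 2.18 CPM in controls and 7.23 ± 0.901 CPM in Alb-cre livers without overlap (-0.93 ± 0.15, adjusted p = 0.00473 by edgeR). Snhg20 (-0.93 ± 0.26, adjusted p = 0.0291), Epb41l4aos (-0.82 ± 0.23, adjusted p = 0.0287), Cep83os (-0.88 ± 0.27, adjusted p = 0.0429) and Dleu2 (-0.99 ± 0.22, adjusted p = 0.0134) were the others called by edgeR. Zfas1 and Dleu2 were called whichever of the 9 livers was left out. That of Cep83os was lost without control 1, 3 or 4 or Alb-cre 1, 2, 3, 4 or 5, that of Snhg20 without control 2 or 4 or Alb-cre 1 or 5, and that of Epb41l4aos without control 1, 2 or 4 or Alb-cre 1 or 5. The number lower was 3 without control 1 or control 2, and 2 without control 4, Alb-cre 1 or Alb-cre 5. The annotation does not bear out the list for each name. Of the 13 tested genes 11 were found by name in GENCODE M21, and 7 held a snoRNA locus. Of those 7, Zfas1 and Epb41l4aos were called. The other called genes held none: Snhg20, Cep83os and Dleu2, which holds the microRNA genes Mir15a and Mir16-1. Over the 19 tested genes listed as hosts in both lists, control 4 was the highest control in 12 and Alb-cre 2 the highest of its group in 6. Snhg17 (-0.15 ± 0.22, adjusted p = 0.669), Snhg6 (-0.24 ± 0.19, adjusted p = 0.41) and Snhg18 (0.42 ± 0.41, adjusted p = 0.49) did not pass the test by edgeR.

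The protein-coding genes of the same biology did not share the pattern of calls by edgeR. Of 40 protein-coding snoRNA host genes 3 were higher and 3 lower, shares of 7.5% each, with a median log2 fold change of -0.09. Over all tested genes the shares were 9.25% higher and 9.07% lower. DESeq2 and upper-quartile scaling each gave 5 lower. In sign, 22 of the 40 were below 0, among them all listed ribosomal protein genes except Rpl3, Rps3 and Rps13. Sf3b3, a splicing factor gene, rose from 33.6 ± 2.66 to 49.6 ± 4.91 CPM (0.56 ± 0.11, adjusted p = 0.00833), and the translation factor gene Eif4g2 rose as well (0.65 ± 0.16, adjusted p = 0.0176), with its call lost without control 2. The ribosomal protein genes Rpl30 (-0.51 ± 0.13, adjusted p = 0.0227) and Rpl21 (-0.62 ± 0.18, adjusted p = 0.0375) fell, the Rpl30 call being lost without control 2 or 4 or Alb-cre 1 or 5 and the Rpl21 call without control 2 or 4 or Alb-cre 1, 3, 4 or 5. Both have processed pseudogenes that could share their reads. The count higher was 1 without control 2, and the count lower was 0 without control 2, control 4 or Alb-cre 1 or 5, 1 without Alb-cre 4 and 6 without Alb-cre 2. Of 16 TOP genes of translation outside the ribosome, 1 was lower (Npm1, -0.40 ± 0.11, adjusted p = 0.0256) and 0 higher, with a median of -0.15. The Npm1 call was lost without control 1 or 2 or Alb-cre 1 or 5. The count lower was 0 in each of those fits and 2 without control 4, Alb-cre 2 or Alb-cre 3. DESeq2 called 2 lower, and DESeq2 and limma-voom each called 1 higher. All p-values here are from edgeR unless named otherwise.

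**Figure D4:**
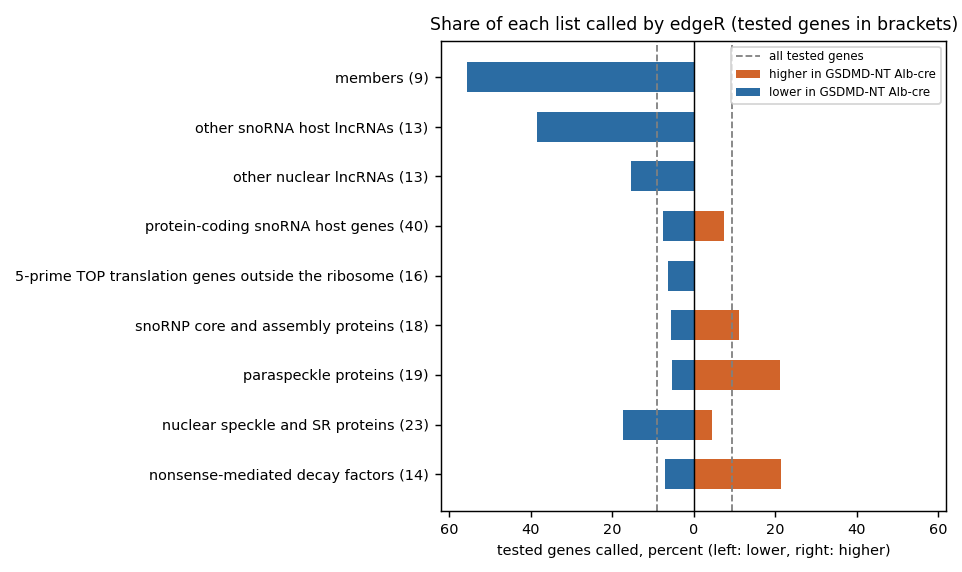
Share of tested genes called by edgeR in each list (x axis, percent, lower to the left in blue and higher to the right in orange), with the share over all 14004 tested genes as dashed lines at 9.07% and 9.25%. The members and the other lncRNA genes listed as hosts extend left without a right bar, at 55.6% and 38.5% lower. Other nuclear lncRNAs and the TOP genes also lack a right bar, at 15.4% and 6.25% lower. Not every one of the other lncRNA genes listed as hosts holds a snoRNA locus in GENCODE M21. Paraspeckle proteins and decay factors reach further to the right.

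Of 18 snoRNP core and assembly genes, whose proteins work with snoRNAs, 2 were higher (11.1%, near the 9.25% over all tested genes), 1 was lower (5.56%) and 15 did not pass, with a median log2 fold change of 0.16. Nolc1, a chaperone of snoRNPs in the nucleolus and Cajal bodies, rose from 24.7 ± 2.72 to 51.6 ± 8.04 CPM (1.06 ± 0.14, adjusted p = 0.00179 by edgeR). Nop58, a core protein of box C/D snoRNPs, rose from 14.0 ± 2.74 to 24.0 ± 4.06 CPM (0.78 ± 0.16, adjusted p = 0.00991 by edgeR), and both were called whichever of the 9 livers was left out. Nop10, a core protein of box H/ACA snoRNPs, fell (-0.39 ± 0.10, adjusted p = 0.0238 by edgeR), a call lost without control 2 or 4 or Alb-cre 1 or 5. The count higher was 4 without Alb-cre 3.

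Of 14 nonsense-mediated decay factors, which remove many spliced host RNAs, 3 were higher (21.4%) and 1 lower (7.14%). Over all tested genes the shares were 9.25% and 9.07%. The median log2 fold change of the list was -0.04. Smg8 measured 10.1 ± 0.999 CPM in controls and 14.4 ± 2.02 CPM in Alb-cre livers (0.50 ± 0.14, adjusted p = 0.0297 by edgeR). The lower gene was Smg6. The 4 calls were weak: the count higher was 0 without control 2, control 4 or Alb-cre 1 or 5, and 1 without Alb-cre 3 or 4. The Smg6 call was lost without control 1, 2 or 4 or any Alb-cre liver.

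Genes for protein partners of Neat1 moved in both directions. Of 19 paraspeckle proteins 4 were higher (21.1%, against 9.25% of all tested genes) and 1 lower (5.26%, against 9.07%). The median log2 fold change was -0.03, with 11 of 19 below 0. Sfpq, a core paraspeckle protein, rose from 51.4 ± 3.76 to 89.2 ± 6.22 CPM without overlap (0.80 ± 0.10, adjusted p = 0.00224 by edgeR), and Smarca4, a chromatin remodelling ATPase, from 55.6 ± 3.02 to 85.8 ± 8.45 CPM (0.63 ± 0.11, adjusted p = 0.00518 by edgeR). Pspc1 (0.70 ± 0.19, adjusted p = 0.0268 by edgeR) and Fam98a were the other higher genes. Zc3h6 fell from 2.25 ± 0.241 to 0.633 ± 0.295 CPM (-1.80 ± 0.33, adjusted p = 0.00611 by edgeR). Sfpq, Smarca4 and Zc3h6 were called whichever of the 9 livers was left out, that of Pspc1 was lost without control 1, 2 or 4 or Alb-cre 1 or 5, and that of Fam98a without control 2 or 4 or Alb-cre 5. The count higher was 2 without control 2, control 4 or Alb-cre 5, and the count lower was 2 without Alb-cre 2.

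Of 23 genes for nuclear speckle and SR proteins, the surroundings of Malat1, 4 were lower (17.4%) and 1 higher (4.35%). Over all tested genes the shares were 9.07% lower and 9.25% higher. The median log2 fold change of the list was -0.09. Srrm2, a scaffold protein of speckles, fell from 531 ± 60.7 to 311 ± 39.8 CPM without overlap (-0.77 ± 0.14, adjusted p = 0.00586 by edgeR). Clk1, a kinase of SR proteins, fell (-0.59 ± 0.13, adjusted p = 0.0138 by edgeR), as did the splicing factor gene Srsf5 (-0.46 ± 0.12, adjusted p = 0.0219 by edgeR), whose call was lost without control 2 or 4 or Alb-cre 1. Srsf2 was the other lower gene and Hnrnpc the higher one. The count lower was 2 without control 2, control 4 or Alb-cre 1, and the count higher was 0 without control 2, control 4 or Alb-cre 4 or 5.

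Among 13 tested lncRNAs listed as other nuclear lncRNAs, 2 were lower (3 by DESeq2) and 0 higher, the latter also by DESeq2 and limma-voom. The share lower by edgeR was 15.4%, against 9.07% of all tested genes, and the median log2 fold change was -0.31. Firre, an RNA that organises chromatin, fell from 76.9 ± 21.3 to 45.6 ± 5.92 CPM without overlap (-0.75 ± 0.17, adjusted p = 0.014 by edgeR), and Mir22hg fell from 55.4 ± 9.84 to 37.0 ± 6.49 CPM (-0.58 ± 0.16, adjusted p = 0.0268 by edgeR). The Mir22hg call was lost without control 2, control 4 or Alb-cre 4, and the count lower was 1 without control 4 or Alb-cre 4. Tug1, at 23.5 ± 1.54 and 25.3 ± 0.679 CPM (0.11 ± 0.10, adjusted p = 0.453), and the largely cytoplasmic Norad, at 80.1 ± 14.6 and 92.5 ± 11.2 CPM (0.21 ± 0.14, adjusted p = 0.325), did not pass the test by edgeR.

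Gas5 RNA is known from human cells to bind the glucocorticoid receptor and to hold it from its targets. Of 11 tested genes for the receptor and its targets, 3 were higher (27.3%, against 9.25% of all tested genes) and 0 lower. The median log2 fold change was 0.21, with 3 of 11 below 0. The receptor gene Nr3c1 and the targets Tsc22d3, Sgk1, Per1, Dusp1, Klf9, Pck1 and G6pc did not pass. Among these, Dusp1 differed by -0.56 ± 0.49, Klf9 by -0.20 ± 0.13, Sgk1 by 0.03 ± 0.30 and Tsc22d3 by 0.89 ± 0.40 on the log2 scale. Fkbp5, a receptor co-chaperone and target, rose from 28.4 ± 3.17 to 87.5 ± 32.8 CPM (1.62 ± 0.26, adjusted p = 0.00438 by edgeR), and Zbtb16 from 8.19 ± 2.51 to 38.8 ± 31.0 CPM (2.24 ± 0.46, adjusted p = 0.00933 by edgeR). Both were called whichever of the 9 livers was left out. Tat, a tyrosine-degrading enzyme gene, rose (1.01 ± 0.29, adjusted p = 0.0339 by edgeR), a call lost without control 1, 3 or 4 or Alb-cre 1 or 2. Whether these genes moved with the level of Gas5 was not tested.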

How the data were processed

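The authors deposited whole-number counts per gene for 9 livers, 1 column each and not normalized; per the submitters' processing notes fastp 0.23.2, HISAT2 2.1.0 and build GRCm39 were used. Ribosomal RNA was depleted and libraries kept strand, per the labels' protocols. The sources used here give neither the counting tool nor its strand setting. Groups and replicate numbers came from sample titles. Genes passing filterByExpr (14004 of 18954) received TMM factors of 0.894 to 1.095 and were tested in R 4.3.3 with edgeR 4.0.16 (glmQLFit, glmQLFTest), with standard errors derived from the F statistic, after the step was tested on simulated data. Log2 CPM used a prior count of 0.5. Alternatives used DESeq2 1.42.0 and limma 3.58.1, other scalings and filters, replicate blocks and livers left out. The members and lists were chosen with earlier results of these data known. Genes named were the 10 members, called genes of each list by smallest adjusted p, and genes most correlated with 5 members. Some others were named after their values were seen: Dio3os, Rian, Mirg, Dlk1, Snhg17, Snhg6, Snhg18, Tug1, Norad, Rpl3, Rps3 and Rps13. Annotation and sequences of GRCm38 were used for lengths, overlaps and start regions. Intervals and floors cover counting error alone. Within groups, every pair of livers differed beyond sampling noise (chi-square of at least 13.96 per gene). Figures were drawn with matplotlib 3.10.9.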

Additional observations from a re-analysis of the deposited data

Results flagged for a closer look

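Snhg1 in Alb-cre 2 measured 9.45 CPM, far from the other 4 livers of its group, which lay between 5.29 and 6.20 CPM. Its gap to the nearest liver was 0.781 of the group's range, past Dixon's critical value of 0.71. Of 22 groups of values checked this way 1 was flagged, and chance flags about 1 in 20.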

How the results depend on the processing

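The 5 member calls (Gas5, Snhg8, Snhg11, Snhg12, Meg3) stood under RLE, upper-quartile and library-total scaling, totals without mitochondrial and the 20 most abundant genes, DESeq2, limma-voom and both filters. With controls 2 and 4 both left out, 2 controls remained and 0 members were called: the log2 fold change was -0.46 for Gas5, -0.48 for Snhg8, -1.04 for Snhg11, -0.65 for Snhg12 and -1.999 for Meg3, and 29 genes were higher and 44 lower in all. The labels do not say whether title or description numbers pair the livers. Over all tested genes, deviations of same-numbered livers correlated at -0.0147 to 0.124 by title and -0.108 to 0.0426 by description. So few pairs cannot exclude pairing, nor can values over all genes exclude it for single genes. A replicate block on the title number lowered the SE of Malat1 from 0.43 to 0.16 and of Neat1 from 0.32 to 0.15. With a replicate block on the title number, Neat1 passed (-0.93) and 6 members and 819 genes were lower. With a replicate block on the description number, 2 members stayed called, 281 genes were higher and 248 lower, and Gas5 (-0.56), Snhg8 (-0.60) and Snhg12 (-0.64) did not pass. Leaving out each liver gave 4 to 5 members lower, 567 to 1339 genes higher and 625 to 1184 lower, -0.78 to -0.57 for Snhg12 and -0.51 to 0.15 for Malat1. Malat1 was reversed to 0.15 without control 3. The cause of these shifts was not tested. The 9 tested members rest on 11 to 13125 counts per liver, and Meg3 is the least deeply counted of those tested.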

Other observations

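Markers of other liver cells were counted in the same livers. Their counts stand beside 9.25% higher and 9.07% lower among all 14004 genes tested. Of 12 tested Kupffer cell and macrophage markers 2 were higher and 0 lower. Cd163, a scavenger receptor gene, rose from 5.51 ± 2.11 to 17.6 ± 4.98 CPM (log2 fold change 1.67, adjusted p = 0.00451 by edgeR), and Timd4 was the other, with 1 marker higher in 6 of the 9 fits that left out a liver. Of 12 endothelial markers 2 were higher, Lyve1 and Cdh5, and 0 lower. That count was 0 without control 1, control 4 or Alb-cre 1, 1 without control 2 or 3 or Alb-cre 3, 4 or 5, and 6 without Alb-cre 2. Stellate cell and fibroblast markers (12 tested) had 0 called by edgeR, DESeq2 or limma-voom. Of 7 cholangiocyte markers 0 were called by edgeR, while DESeq2 and limma-voom each called 1 lower. Of 5 erythroid markers 1 was lower, Hba-a2, a call lost without control 3 or 4 or Alb-cre 1 or 5. Of 11 hepatocyte markers 1 was lower, Ttr, which was called in all 9 fits that left out a liver. Of 2 neutrophil markers tested 0 were called by edgeR and 1 was higher by DESeq2. Of 2 neuronal markers tested 0 were called by edgeR, DESeq2 or limma-voom.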
